A study of Rattus norvegicus with 46 samples.

Results

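Irradiated, vehicle-treated rat skin was compared between day 14 and day 7 after the radiation course, over all 23188 non-control features of the array. The members were the 3 arrays of day 14 and the 3 arrays of day 7 whose titles name irradiation with DMSO, 6 of the 46 arrays of the study, and both days came from the same 3 rats. Each rat thus gave its own difference, and the replicates 1, 2 and 3 below are rats 322, 321 and 320. The tissue was a 5 mm punch of abdominal skin from Sprague-Dawley rats, taken repeatedly from each animal.

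All 3 rats had received 6 MeV electrons to the abdominal soft tissue, 40 Gy in 4 fractions of 10 Gy given every other day over 8 days, and injections of the DMSO vehicle on days -7, -5, -3 and 0. Beside them stood 3 irradiated rats injected with RTA-408, an activator of the antioxidant transcription factor NRF2, with 3 arrays on each of the same days. The remaining arm was unirradiated skin of 2 sham-treated rats with vehicle, with 2 arrays on each day. The 6 baseline arrays came from biopsies on day -10, before any drug or radiation, and replicates 1 and 2 but not replicate 3 of the irradiated vehicle arm have one. Punches of full skin hold epidermis, hair follicles, dermis, fat, vessels, blood and a varying amount of muscle, so fewer cells of a type and less RNA per cell cannot be told apart in any value below.

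Radiation stops the division of basal keratinocytes, the cells that renew the epidermis from below. In the wound response that follows, keratinocytes switch on repair keratins, secreted proteases and growth factors of the EGF family, neutrophils and then macrophages and lymphocytes enter, and fibroblasts lay down matrix. Hair follicles are among the most radiation-sensitive structures of the skin, because the hair matrix divides fast. Days 7 and 14 fall in the weeks in which acute radiation damage of the epidermis appears and begins to close.

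The defining skin transcripts were bright on all 6 arrays. Krt14, the keratin of basal cells, had log2 signals of 17.60 to 18.64 on day 14 and 18.73 to 18.82 on day 7. Col1a1, the main dermal collagen chain, had 18.71 to 19.14 on day 14 and 18.12 to 19.19 on day 7. Pecam1 of endothelium was lower, at 8.60 to 9.50 on day 14 and 8.78 to 9.35 on day 7. Krt5 and Krt10 had no feature named for them and were not used here. Levels are deposited log2 signals, and since these reach 19.93, beyond the 16 bits of a scanner, every contrast is a log2 difference on the deposited scale, day 14 minus day 7, and not a fold.

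The 3 rats did not go through this week alike. On day 14, replicate 3 stood farthest from the other arrays of the comparison, with a mean correlation of 0.947 with the other 5, against 0.961 and 0.972 for the day 14 arrays of replicates 1 and 2 and 0.973 to 0.975 for the arrays of day 7. The array weights of limma, which fall when an array departs from its group, were 0.217 for day 14 of replicate 3 and 0.557 for day 14 of replicate 1, and 0.916 or more for the other 4. Spike-in signals part the arrays into sets of unknown origin, and replicate 3 is the only rat with both days in 1 set. With that set as a further block beside the rat, 44 features passed the test, and all 27 named genes below were among them.

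In the fit over all arrays with the rat as a block, 39 of 23188 features differed between day 14 and day 7 at an adjusted p under 0.05, which is 0.168% of those tested. Of these, 9 rose (0.0388%) and 30 fell (0.129%), and all 39 moved in 1 direction in all 3 rats, as did 29.8% of all features. The median difference over all features was 0.02, and 2663 features had an unadjusted p under 0.05. Among the 39, 27 carried a gene symbol, 8 that rose and 19 that fell. The count rested on the rats: it was 230 without replicate 1 (146 higher and 84 lower), 53 without replicate 2 (12 higher and 41 lower) and 26 without replicate 3 (11 higher and 15 lower). The features changed as well as the counts. Of the 39, 33 passed without replicate 1, 16 without replicate 2 and 7 without replicate 3. Of the 9 that rose, 8, 1 and 0 passed as higher in these fits. Fitted on the 6 arrays alone, no feature passed in limma, with a smallest adjusted p of 0.36 and 1770 features at an unadjusted p under 0.05.

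Only Bcl2l15, Cyp2f4 and Iffo2 among the 27 named genes passed without each of the 3 rats in turn. The call was lost by 4 of the 27 without replicate 1, by 15 without replicate 2 and by 22 without replicate 3. With array weights 12 of the 27 lost it. The sign of the difference was the same for all 27 under each of these alternatives. On both days Adamtsl3 and Itgae were no brighter than the negative control features (array medians of 5.78 to 6.52), so no difference is given for them, and 25 genes remain.

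**Figure D1:**
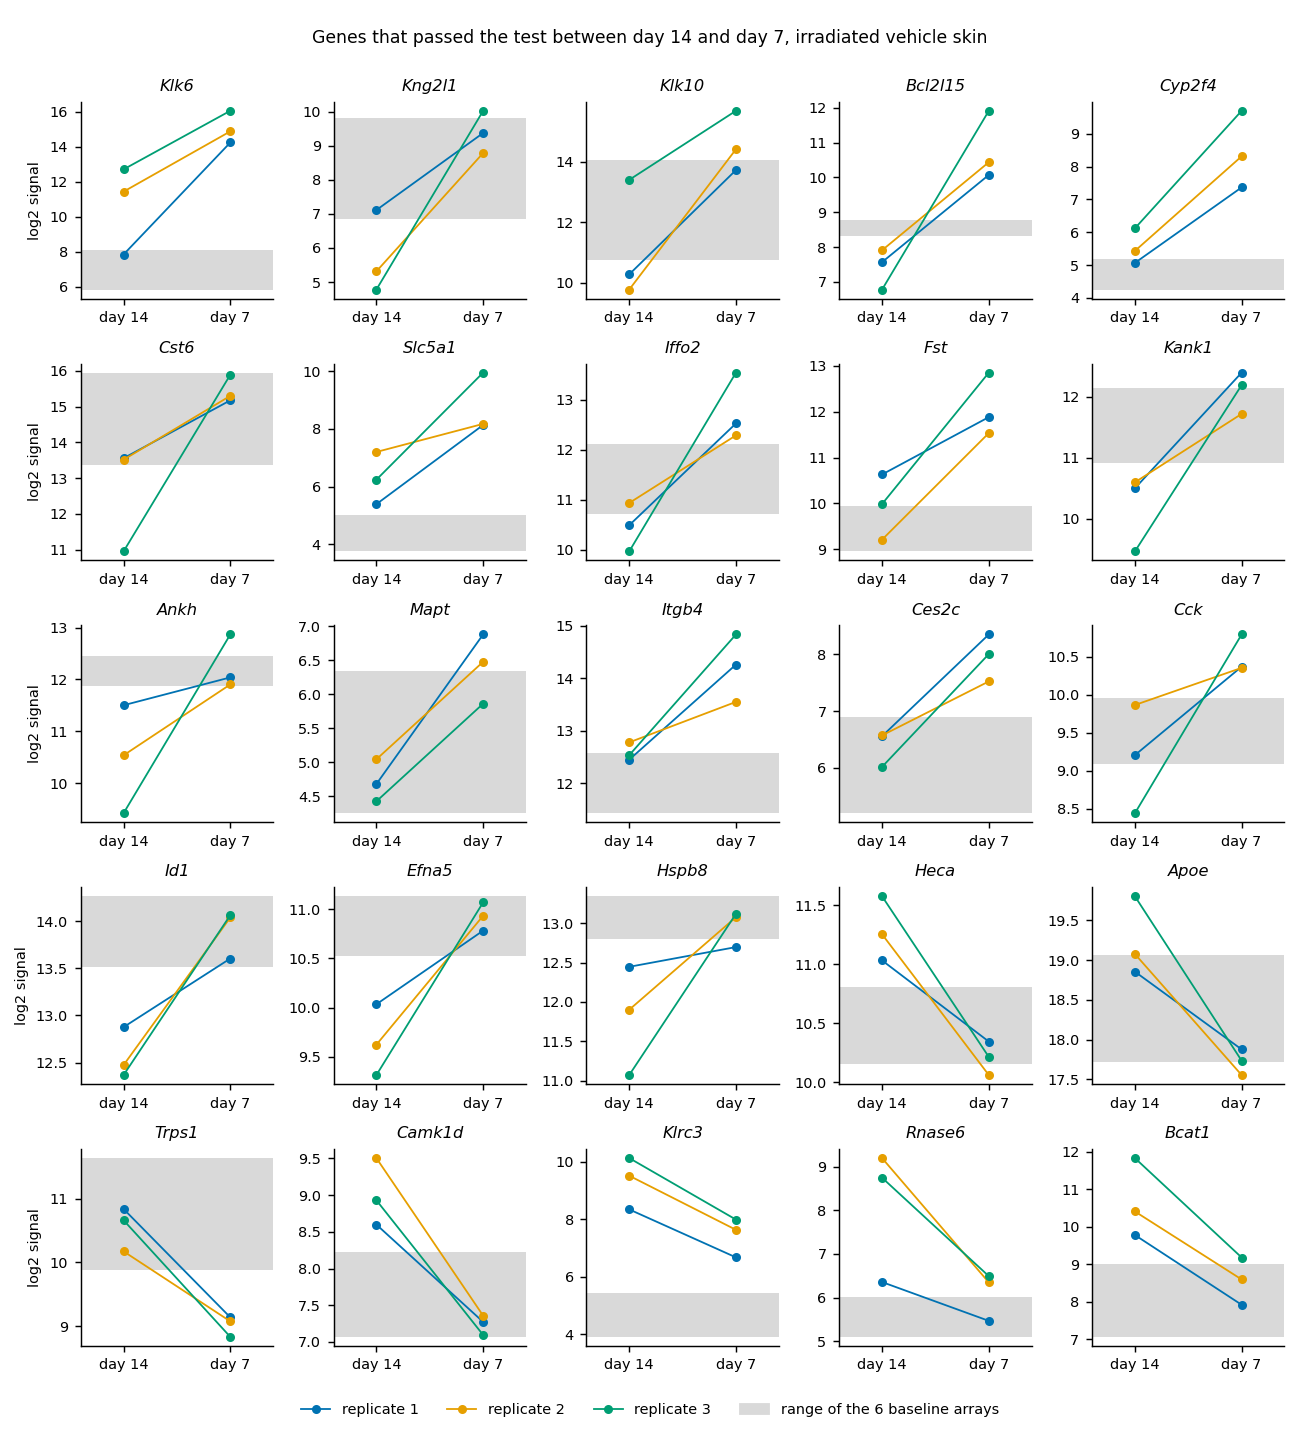
Deposited log2 signal of the 25 measurable genes that passed the test, 1 panel per gene, with day 14 left of day 7 and a line for each rat, and the range of the 6 baseline arrays in grey. All 3 lines of a gene run the same way, and in the Klk6 panel replicate 1 on day 14 (7.84) lies within the baseline range while the day 7 arrays lie at 14.25 to 16.07.

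The secreted proteases Klk6 and Klk10 and the protease inhibitor Cst6 fell. Klk6, a tissue kallikrein, which is a secreted serine protease, had 7.84, 11.43 and 12.71 in replicates 1, 2 and 3 on day 14, against 14.25, 14.89 and 16.07 on day 7. No array of day 14 reached the lowest of day 7. The difference over the 3 rats was -4.41 ± 0.88 (adjusted p = 0.0301 by limma). After a difference, ± is the SE of the model, pooled over all arrays, and not the spread of the rats. At baseline the gene lay between 5.83 and 8.07, so replicates 2 and 3 were above that range on both days. The unirradiated arrays of both days, at 8.57 to 9.12, were above it too. The adjusted p was 0.0617 without replicate 1 and 0.0648 without replicate 2.

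Klk10, another kallikrein, had 10.27, 9.76 and 13.40 on day 14, against 13.73, 14.42 and 15.69 on day 7. The days did not overlap, by the narrow gap between replicate 3 on day 14 and replicate 1 on day 7, and the gene fell by 3.47 ± 0.67 (adjusted p = 0.0232, and 0.0993 without replicate 2). Cst6, cystatin E/M, which blocks the cathepsins and legumain of the cornifying epidermis, had 13.56, 13.52 and 10.95 on day 14, against 15.18, 15.30 and 15.89 on day 7. Replicate 3 showed the deepest drop, and the fitted difference of -2.78 ± 0.48 (adjusted p = 0.012) was -1.70 without it and did not pass (adjusted p = 0.207).

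Klk6 and Klk10 lie near each other on chromosome 1 with Klk9, Klk8 and Klk7 between them in the RefSeq annotation, and this run of neighbours was looked at after the values of Klk6 and Klk10 were seen. The 3 genes between did not pass. Klk9 had 11.30, 13.92 and 14.03 on day 14, against 12.22, 12.51 and 13.75 on day 7 (difference 0.26, adjusted p = 0.92). Klk8 had 12.07, 13.95 and 10.89 on day 14, against 11.95, 11.52 and 11.46 on day 7 (difference 0.66, adjusted p = 0.68). Klk7, the protease that sheds corneocytes by cutting their junctions, had 13.64, 15.76 and 13.07 on day 14, against 15.26, 14.81 and 15.92 on day 7 (difference -1.17, adjusted p = 0.324). All 6 arrays of Klk9, Klk8 and Klk7 lay above the baseline maxima of 7.93, 9.04 and 12.83. The unirradiated arrays of both days also lay above them for Klk8 (9.89 to 10.03) and Klk7 (12.85 to 13.62). For Klk9 the unirradiated arrays had 7.73 to 9.37. Without replicate 2, Klk7 passed in limma as lower (difference -2.24, adjusted p = 0.0335). Beyond Klk10 in the row, Klk11 fell by 1.77 with no overlap between days, and Klk13 by 1.46 with the same sign in all 3 rats. Neither passed (adjusted p = 0.163 and 0.403). Klk12 was no brighter than the negative controls on both days. Differences were thus above 0 for Klk9 and Klk8 and below 0 for Klk13, Klk11, Klk10, Klk7 and Klk6. A test of one gene against another was not run.

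**Figure D2:**
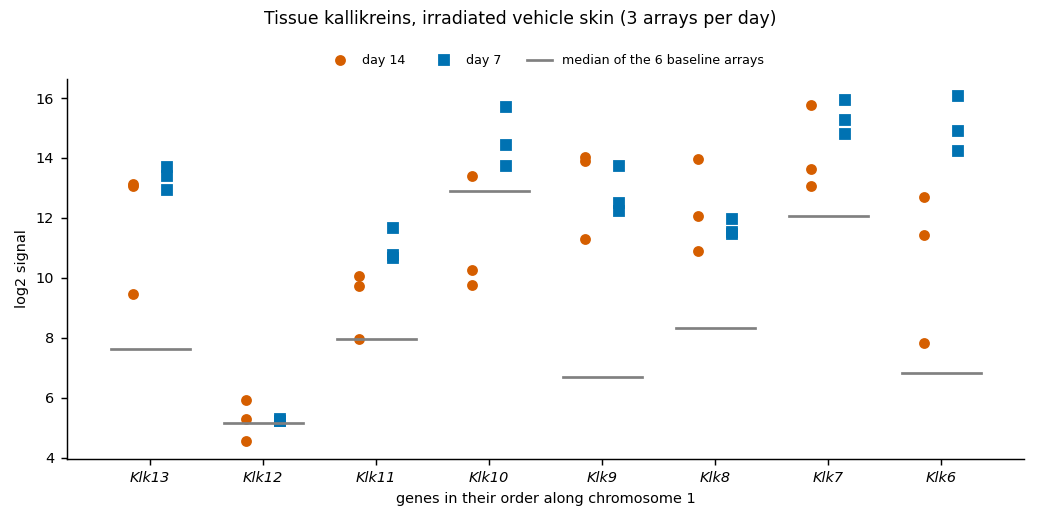
Deposited log2 signals of 8 neighbouring kallikreins in their order along rat chromosome 1, with the 3 day 14 arrays left of the 3 day 7 arrays and a line at the baseline median. Day 14 and day 7 do not overlap for Klk11, Klk10 and Klk6, of which Klk10 and Klk6 passed the test (-3.47 and -4.41), and they overlap for Klk9, Klk8 and Klk7.

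The promoters of the 2 kallikreins that passed as lower are shown since they lie near each other, from 250 bases before to 50 after the start of the gene (RefSeq, GRCr8, plus strand). The deepest fall was in replicate 1 for Klk6 and in replicate 2 for Klk10. Capitals mark matches to the AP-1 motif TGANTCA, the site of the FOS and JUN factors of the wound response, which was searched on both strands.
Klk6 promoter, chr1:103415266-103415565: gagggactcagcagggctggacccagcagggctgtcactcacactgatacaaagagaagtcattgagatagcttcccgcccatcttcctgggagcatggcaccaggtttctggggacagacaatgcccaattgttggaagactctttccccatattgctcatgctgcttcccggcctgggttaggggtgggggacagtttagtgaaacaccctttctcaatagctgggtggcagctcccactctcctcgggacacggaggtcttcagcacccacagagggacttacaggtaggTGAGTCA
Klk10 promoter, chr1:103371388-103371687: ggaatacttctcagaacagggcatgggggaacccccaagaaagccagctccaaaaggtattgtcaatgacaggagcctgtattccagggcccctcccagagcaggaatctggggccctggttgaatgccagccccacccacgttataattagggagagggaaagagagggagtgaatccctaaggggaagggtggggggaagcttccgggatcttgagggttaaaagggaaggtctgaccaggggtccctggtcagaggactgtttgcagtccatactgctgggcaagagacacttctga
The window of Klk6 holds 1 match, which begins 44 bases into the transcribed part, and that of Klk10 holds none. Of the 25 measurable genes 18 had a promoter in the RefSeq table, and 1 of these 18 (5.56%) held the motif, against 2453 of all 33469 promoters (7.33%). The TATA box letters TATAAA were in 2 of 18 (11.1%), against 14.2% of all promoters, and the NRF2 motif TGACNNNGC in 3 of 18 (16.7%), against 12.1%. The interferon motif GAAANNGAAA was in none of the 18 and in 3.92% of all. These are matches of letters and carry no test.

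Among genes of cell attachment and the cytoskeleton, Itgb4, Kank1, Iffo2 and Efna5 fell. Itgb4, the beta4 integrin chain that anchors basal keratinocytes to the basement membrane in hemidesmosomes, had 12.45, 12.78 and 12.54 on day 14, against 14.26, 13.55 and 14.83 on day 7. The day 14 arrays sat close together around the baseline maximum of 12.58, and the difference was -1.63 ± 0.28 (adjusted p = 0.012, and 0.153 without replicate 3). It was the 1 called member of the 9 measured genes of the basal keratinocyte list. Itga6, its partner chain, which was named after its values were seen, had 14.00, 14.21 and 13.57 on day 14, against 14.88, 14.60 and 14.72 on day 7, with no overlap but an adjusted p of 0.17. Over the 9 genes 8 differences lay below 0, with a median of -0.55, and 4 had no overlap between days in the lower direction, as had 7.59% of all features.

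Kank1, an adaptor that links talin at adhesions to the cell cortex, had 10.50, 10.60 and 9.46 on day 14, against 12.39, 11.72 and 12.19 on day 7. All 3 arrays of day 14 were below the baseline range of 10.92 to 12.15, and the gene fell by 1.91 ± 0.33 (adjusted p = 0.0113, and 0.132 without replicate 3). Iffo2, of the intermediate filament family, had 10.49, 10.94 and 9.97 on day 14, against 12.53, 12.29 and 13.55 on day 7. Its difference of -2.33 ± 0.32 had one of the smallest adjusted p among named genes (0.000637) and an adjusted p of 0.0356 or less whichever rat was left out. Efna5, a membrane-bound ligand of Eph receptors, was below its baseline range on all 3 arrays of day 14 (9.32 to 10.03, against 10.78 to 11.07 on day 7) and fell by 1.27 ± 0.26 (adjusted p = 0.0359, and 0.307 without replicate 3).

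Among metabolic and transport genes, Cyp2f4, Slc5a1, Ces2c, Ankh and Kng2l1 fell. Cyp2f4, a cytochrome P450, had 5.06, 5.43 and 6.12 on day 14, against 7.37, 8.31 and 9.70 on day 7. Its day 14 mean was no brighter than the negative controls, so the drop was at least 2.32 log2 units (adjusted p = 0.000637), and its adjusted p was 0.0116 or less whichever rat was left out. Slc5a1, the sodium-glucose cotransporter SGLT1, had 5.39, 7.20 and 6.24 on day 14, against 8.13, 8.17 and 9.95 on day 7. It fell by 2.47 ± 0.46 (adjusted p = 0.0184, and 0.207 without replicate 3). Its baseline arrays were all no brighter than the negative controls.

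Ces2c, a carboxylesterase, had 6.56, 6.57 and 6.02 on day 14, against 8.35, 7.53 and 8.01 on day 7, and the baseline maximum of 6.90 lay between the days. The difference was -1.58 ± 0.31 (adjusted p = 0.0278, and 0.0717 and 0.231 without replicates 1 and 3). Ankh, a membrane protein needed for the release of pyrophosphate from cells, had 11.50, 10.54 and 9.42 on day 14, against 12.04, 11.90 and 12.87 on day 7. The rats differed in size here, replicate 1 by -0.54 and replicate 3 by -3.45, and the fitted fall of -1.78 ± 0.33 (adjusted p = 0.0184) was -0.95 without replicate 3, with an adjusted p of 0.307. Kng2l1, a kininogen-like gene, averaged 5.73 ± 1.22 on day 14 and 9.40 ± 0.62 on day 7 (SD, n = 3 each), a fall of at least 2.89 against the negative controls (adjusted p = 0.0278, and 0.288 without replicate 3). Another feature annotated to Kng2l1 did not pass in the main fit, but passed in limma without replicate 1 (difference -5.41, adjusted p = 0.0129).

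Regulators and signals made up the remainder of the genes that fell. Bcl2l15, a relative of the BCL2 family of cell death regulators, had 7.56, 7.91 and 6.78 on day 14, against 10.07, 10.44 and 11.92 on day 7. The day 14 arrays were all below the baseline range of 8.31 to 8.79 and those of day 7 all above it, and the difference was -3.39 ± 0.48 (adjusted p = 0.000946, at most 0.0231 whichever rat was left out). Fst, follistatin, which binds and silences activins, had 10.63, 9.21 and 9.99 on day 14, against 11.88, 11.54 and 12.85 on day 7 (difference -2.15 ± 0.42, adjusted p = 0.0236, and 0.123 without replicate 3). It was the only called member of the 26 measured genes of the TGF-beta family list, whose median difference was -0.06.

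Id1, a target of BMP signals that blocks helix-loop-helix factors, had 12.88, 12.47 and 12.37 on day 14, against 13.60, 14.04 and 14.06 on day 7. It fell by 1.33 ± 0.25 (adjusted p = 0.0185, and 0.0888 and 0.142 without replicates 2 and 3), to below the baseline minimum of 13.52 in all 3 rats. Cck, the peptide cholecystokinin, had 9.21, 9.87 and 8.44 on day 14, against 10.37, 10.36 and 10.80 on day 7, and fell by 1.34 ± 0.28 (adjusted p = 0.0376). Replicate 3 had the deepest drop, and without it the difference was -0.83 (adjusted p = 0.439). Hspb8, a small heat shock protein, had 12.45, 11.90 and 11.07 on day 14, against 12.70, 13.08 and 13.12 on day 7, and fell by 1.16 ± 0.24 (adjusted p = 0.0387). Its difference was -0.71 without replicate 3 (adjusted p = 0.35). Mapt, the microtubule protein tau, was no brighter than the negative controls on day 14, so that its fall was at least 0.26 (adjusted p = 0.0359), and it did not pass whichever rat was left out (adjusted p of 0.0778 to 0.0941).

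Fewer genes rose than fell. Apoe, an apolipoprotein of cholesterol-carrying particles that is made in quantity by macrophages, had 18.86, 19.08 and 19.80 on day 14, against 17.88, 17.55 and 17.73 on day 7. The days did not overlap and the difference was 1.52 ± 0.27 (adjusted p = 0.0142, and 0.0602 and 0.174 without replicates 2 and 3). Klrc3, a lectin-like receptor gene of the natural killer cell receptor complex, had 8.34, 9.51 and 10.12 on day 14, against 6.67, 7.63 and 7.99 on day 7, and no baseline array was brighter than the negative controls. It rose by 1.90 ± 0.40 (adjusted p = 0.0387, and 0.115 and 0.188 without replicates 2 and 3).

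Rnase6, an antimicrobial ribonuclease of phagocytes, had 6.36, 9.19 and 8.74 on day 14, against 5.47, 6.35 and 6.49 on day 7. Replicate 1 on day 14 lay among the day 7 arrays, and the difference was 2.00 ± 0.37 (adjusted p = 0.0184, and 0.115 and 0.131 without replicates 2 and 3). Bcat1, the cytosolic enzyme that starts the breakdown of branched-chain amino acids, had 9.78, 10.41 and 11.83 on day 14, against 7.92, 8.60 and 9.18 on day 7 (difference 2.11 ± 0.44, adjusted p = 0.0387, and 0.0888 and 0.114 without replicates 2 and 3). Every day 14 array of Bcat1 was above its baseline range.

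Camk1d, a calcium- and calmodulin-dependent kinase, had 8.60, 9.51 and 8.93 on day 14, against 7.27, 7.36 and 7.09 on day 7. It rose by 1.77 ± 0.31 (adjusted p = 0.0123, and 0.0539 without replicate 3), with all day 14 arrays above the baseline range. The day 7 arrays were below 5 of the 6 baseline arrays, the lone lower one being at 7.07 and the next at 7.85. Trps1, a GATA-type repressor that hair follicles need, had 10.84, 10.17 and 10.66 on day 14, against 9.14, 9.08 and 8.84 on day 7, and here the day 14 arrays were all within the baseline range of 9.89 to 11.63 and the day 7 arrays all below it. Its difference of 1.54 ± 0.32 (adjusted p = 0.0378) did not pass whichever rat was left out (0.0602 to 0.242). Heca rose by 1.08 ± 0.20 (adjusted p = 0.0184, and 0.0961 and 0.18 without replicates 2 and 3).

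Set against the 6 baseline arrays, the genes that fell lay at different levels. Cyp2f4, Slc5a1, Klrc3 and Rnase6, whose baseline signals were all no brighter than the negative controls, and Kng2l1 and Mapt, whose day 14 means were no brighter than them, are left out of these counts. Of the 14 remaining genes that fell, the day 14 mean was above the baseline range for 2, within it for 4 and below it for 8. Those above were Klk6 and, at the very edge of the range, Itgb4 (12.59, against a maximum of 12.58). A mean can hide single arrays. Klk10 counts as within (mean 11.14), but its replicates 1 and 2 on day 14 (10.27 and 9.76) were below the baseline minimum of 10.74. On day 7 the mean of 8 was above the range and that of 6 within it. Bcl2l15 and Iffo2 crossed the range, with means below it on day 14 and above it on day 7. Of the 5 remaining genes that rose, 4 had a day 14 mean above the baseline range and 1, Trps1, within it. Unirradiated arrays also left these ranges for some genes, so a position outside is not particular to irradiated skin. Bcl2l15 had 7.89 in unirradiated replicate 2 on day 14 and 9.09 in replicate 1 on day 7. On day 7 the unirradiated arrays had 13.11 and 12.62 for Id1 and 8.97 and 8.91 for Trps1, all below the range. For Iffo2 they stayed within it on both days (11.35 to 11.78). These positions are a description and were not tested.

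The same 25 genes were read in the other 2 arms, whose rats are different animals. The 25 were chosen by a fit that shares 1 estimate of the spread per gene over all arms. Shares over all features are thus not shares of like genes, and the share of all features with the same sign is not given here. In irradiated RTA-408 skin 23 of the 25 had a difference of the same sign. Of the 25, 11 passed the test in that direction, where 0.992% of all features passed in either direction. Klk10 fell by 4.00 there and Bcl2l15 by 2.43, and the 2 genes with the opposite sign were Klrc3 (-0.04) and Rnase6 (-0.37), neither of which passed. In unirradiated skin 16 of the 25 had the same sign and only Trps1 passed (2.19, adjusted p = 0.023), where 0.625% of all features passed in either direction. Klk6 had a difference of -0.13 and Iffo2 of 0.27 in unirradiated skin, and neither passed.

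The difference between intervals was tested directly. None of the 25 genes differed between the irradiated vehicle and the unirradiated arm after adjustment, with the smallest adjusted p at 0.087 (Kng2l1, whose fitted difference in unirradiated skin was 2.52, from a day 7 mean no brighter than the negative controls, and did not pass). Over all features 2 passed (0.00863%). One of them has no gene symbol in the array annotation, TC1400001501.rn.2, which had 8.98, 9.54 and 8.77 on day 14, against 13.72, 12.35 and 13.79 on day 7 (difference -4.19 ± 0.43, adjusted p = 7.78e-06, the smallest of the comparison). In unirradiated skin it was 2.31 higher on day 14. Between the irradiated vehicle and the irradiated RTA-408 arm no feature passed in limma, with a smallest adjusted p of 0.398 and 1849 features at an unadjusted p under 0.05, and 14 features passed without replicate 1 of the vehicle arm.

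**Figure D3:**
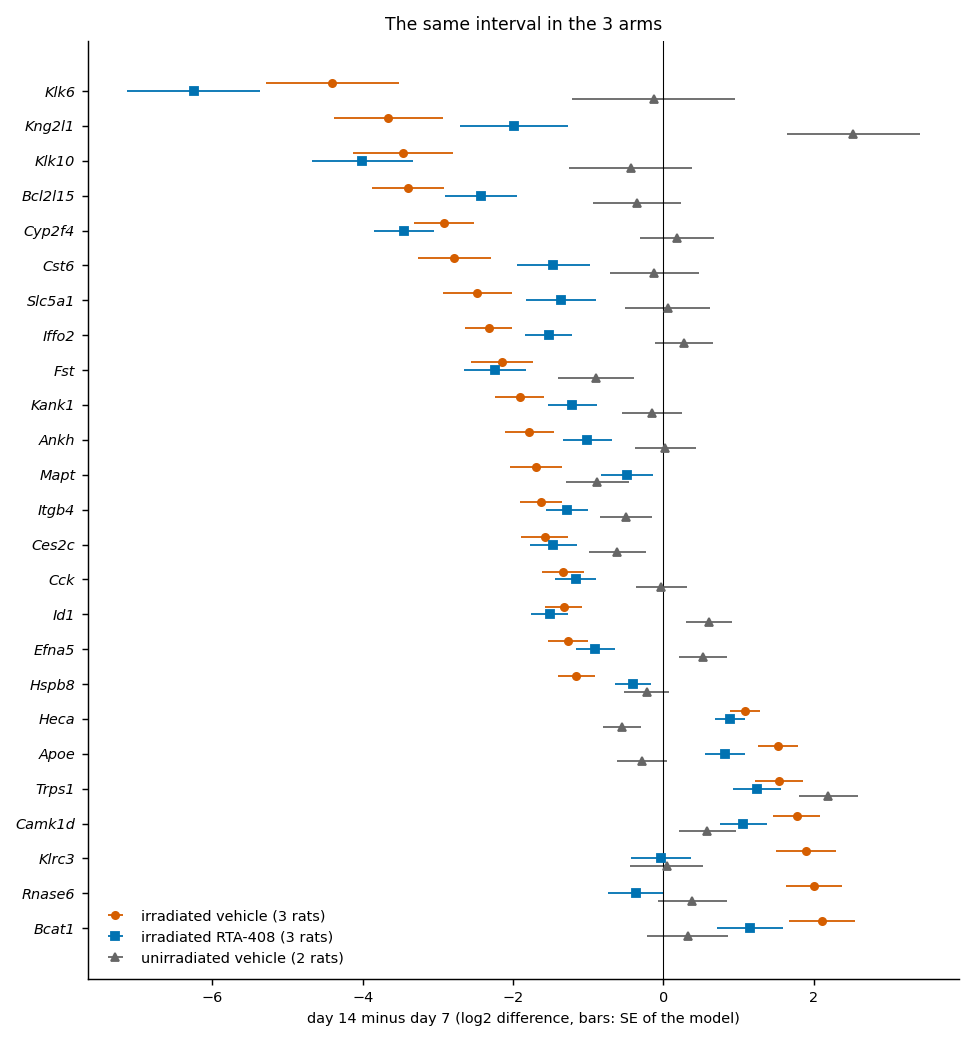
Day 14 minus day 7 (log2 difference, bars show the SE of the model) of the 25 measurable called genes in irradiated vehicle, irradiated RTA-408 and unirradiated vehicle skin. The irradiated arms share the sign in all rows but Klrc3 and Rnase6, and the unirradiated values lie nearer 0 for most genes but reach 2.52 for Kng2l1 and 2.19 for Trps1. Fitted values are drawn, also for Cyp2f4, Kng2l1 and Mapt, whose falls the text gives as bounds.

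In the lists of skin cell types and pathways 3 of 962 entries were called (0.312%, where 0.168% of all features were): 1 in each of the basal keratinocyte, macrophage and TGF-beta family lists (Itgb4, Apoe and Fst), and 0 in the other 42 of 45 lists. The remaining values are therefore given as medians, signs and overlaps, beside a background of 5.68% of all features with no overlap in the higher and 7.59% in the lower direction. Without replicate 1, 17 lists held a called member, with 3.43% of the entries called where 0.992% of all features were.

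None of the 18 measured wound and stress genes of keratinocytes passed the test. Their median difference was -1.43, at -2.17, -1.06 and -0.50 in replicates 1, 2 and 3, 13 lay below 0 and 3 had no overlap. Areg, the EGF-family growth factor amphiregulin, had 3.30, 4.95 and 6.74 on day 14, against 6.88, 7.25 and 8.29 on day 7, and did not pass (adjusted p = 0.0647). Its day 14 mean was no brighter than the negative controls, so the size of its fall is not measured below that level. Krt17, a keratin of wounded epidermis, had 15.27, 14.93 and 16.77 on day 14, against 17.28, 17.13 and 18.36 on day 7, with an adjusted p of 0.0801. Both had no overlap between days.

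S100a8 and S100a9, the calprotectin chains made by neutrophils and by wounded keratinocytes, were split by rat. S100a9 had 10.10, 12.64 and 15.77 on day 14, against 15.75, 16.32 and 15.40 on day 7 (adjusted p = 0.425). Replicate 3 on day 14 was as high as the arrays of day 7, while replicates 1 and 2 were lower. Without replicate 3, 3 members of the wound list passed as lower, as did 0.0647% of all features. The mean over the wound list was 8.88, 10.52 and 12.61 on day 14, against 11.08, 11.78 and 12.65 on day 7, so that replicate 3 held nearly the same value on both days.

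**Figure D4:**
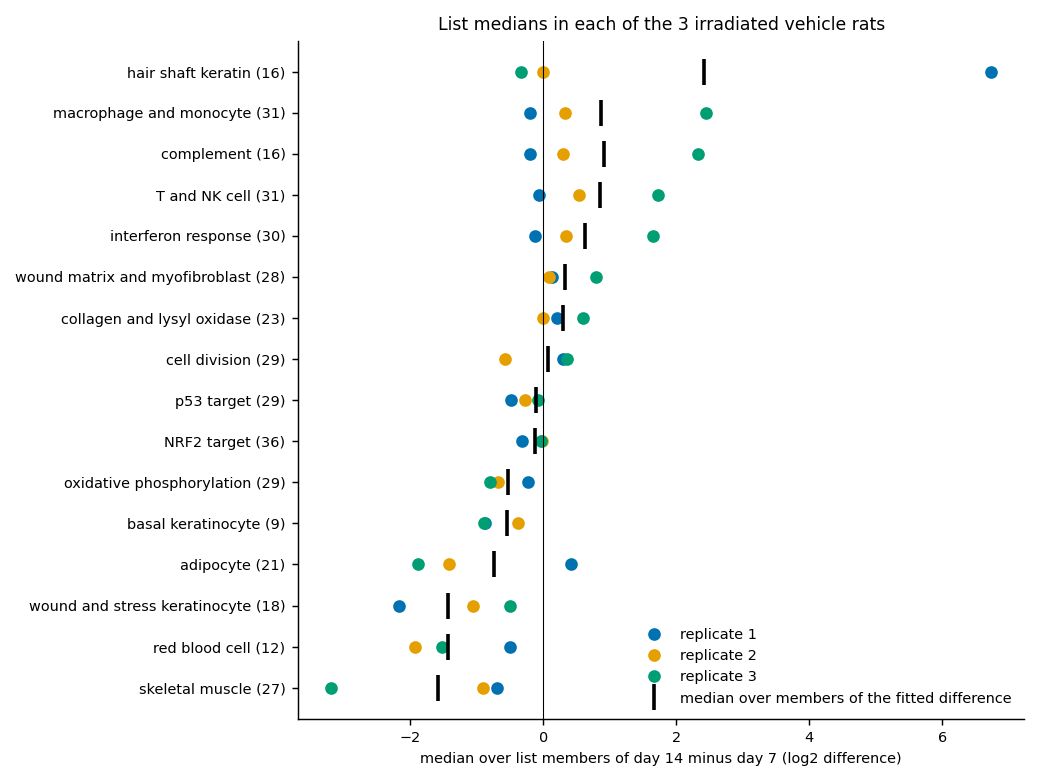
Median over the measured members of 16 gene lists (number in brackets) of the day 14 minus day 7 log2 difference, with a point for each rat and a bar at the median of the fitted differences. Replicate 1 is alone at 6.74 for hair shaft keratins, and replicate 3 is the highest for the macrophage, complement, T and NK cell and interferon lists and the lowest for skeletal muscle (-3.19).

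The hair shaft keratins had high values on day 14 in replicate 1 and no other irradiated vehicle rat. Krt85, a keratin of the hair cortex and cuticle, had 13.77, 6.21 and 5.62 on day 14, against 6.12, 5.25 and 5.38 on day 7 (adjusted p = 0.614). The Krt85 mean of day 7 was no brighter than the negative controls. S100a3, a protein of the hair cuticle, had 15.41, 6.54 and 6.07 on day 14, against 5.92, 6.60 and 6.83 on day 7. The mean over the 16 measured genes was 11.52, 5.54 and 5.06 on day 14, against 5.20, 5.37 and 5.32 on day 7. In unirradiated skin it was 15.51 and 12.27 on day 14, against 7.21 and 5.33 on day 7, and 3 of the 16 genes passed there as higher, where 0.53% of all features did. In irradiated RTA-408 skin it was 7.35, 5.37 and 10.07 on day 14, against 5.55, 5.54 and 5.32 on day 7. The 6 baseline arrays lay between 11.89 and 15.56.

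The macrophage, T and NK cell, interferon and complement lists had their highest values in replicate 3, and this was not particular to them. On day 14 replicate 3 also had the highest mean of the antigen presentation (11.05), neutrophil (8.77) and chemokine (9.88) lists. The next highest, replicate 2, had 9.99, 7.28 and 8.40. The NF-kB feedback (9.73) and matrix protease (11.62) lists were likewise highest in replicate 3. The other immune lists had median differences between -0.13 (mast cell) and 0.26 (chemokine), with neutrophil genes at 0.17. The macrophage and monocyte list averaged 9.15, 10.18 and 12.92 on day 14, against 9.32, 9.81 and 10.45 on day 7, with 28 of 31 differences above 0 and a median of 0.86, which was -0.19, 0.33 and 2.45 by rat. Cd163, the haemoglobin-haptoglobin scavenger receptor of macrophages, had 11.03, 13.29 and 18.29 on day 14, against 11.38, 13.56 and 15.09 on day 7 (adjusted p = 0.8). Only replicate 3 was higher on day 14. All 6 list means were above the baseline range of 7.38 to 8.23, and the unirradiated arrays lay at 7.82 and 8.35 on day 14, against 8.21 and 8.01 on day 7.

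In the T and NK cell list 29 of 31 differences lay above 0, with a median of 0.85, and 4 had no overlap. By rat the median was -0.06, 0.53 and 1.73, and it was 0.34 without replicate 3. Much of this list was dim: 19 of the 31 were no brighter than the negative controls on both days, Cd3e, a CD3 chain of the T cell receptor complex, among them. Ccl5, a chemokine of T cells counted in the chemokine list, had 5.74, 6.93 and 7.49 on day 14, against 5.09, 5.49 and 4.47 on day 7, at least 0.72 higher against the negative controls and short of the threshold (adjusted p = 0.0552). The interferon response list had a median of 0.62, which was -0.12, 0.34 and 1.65 by rat, and the complement list one of 0.92, at -0.20, 0.30 and 2.32. Without replicate 1, which had the lowest medians in these lists, 5 T and NK cell genes, 2 macrophage genes and 2 complement genes passed as higher, as did 0.63% of all features. In irradiated RTA-408 skin the macrophage, T and NK cell, interferon and complement lists had medians of -0.68, -0.01, -1.38 and -0.67.

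No gene of the muscle, fat and red blood cell lists passed the test. In the skeletal muscle list 19 of 27 genes had no overlap in the lower direction and the median was -1.59, at -0.70, -0.90 and -3.19 by rat. Pvalb, the calcium buffer of fast muscle fibres, had 18.09, 16.29 and 7.72 on day 14, against 18.04, 18.71 and 17.78 on day 7 (adjusted p = 0.489). The muscle list averaged 14.64, 14.42 and 11.95 on day 14, against 15.27, 15.27 and 15.26 on day 7, and in unirradiated skin 11.75 and 15.47 on day 14, against 15.83 and 16.08 on day 7. All 29 measured genes of oxidative phosphorylation had a difference below 0 (median -0.53), 12 without overlap, and none passed. Whether muscle content has a part in the oxidative phosphorylation values was not tested.

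The 21 measured adipocyte genes had a median difference of -0.74, at 0.41, -1.42 and -1.88 by rat. Adipoq, the fat hormone adiponectin, had 16.49, 14.07 and 12.33 on day 14, against 15.73, 16.17 and 15.85 on day 7 (adjusted p = 0.212). Replicate 1 alone was not lower, and without it 7 of the 21 genes passed as lower, as did 0.362% of all features. Of 12 measured red blood cell genes 9 had no overlap in the lower direction (median -1.44). The muscle, adipocyte and red blood cell lists had medians of 0.34, -0.15 and -1.47 in irradiated RTA-408 skin. Hbb-b1, a beta globin, had 14.70, 13.91 and 14.01 on day 14, against 15.93, 16.42 and 16.42 on day 7 (adjusted p = 0.248), with near copies among the globins that the array may not keep apart.

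**Figure D5:**
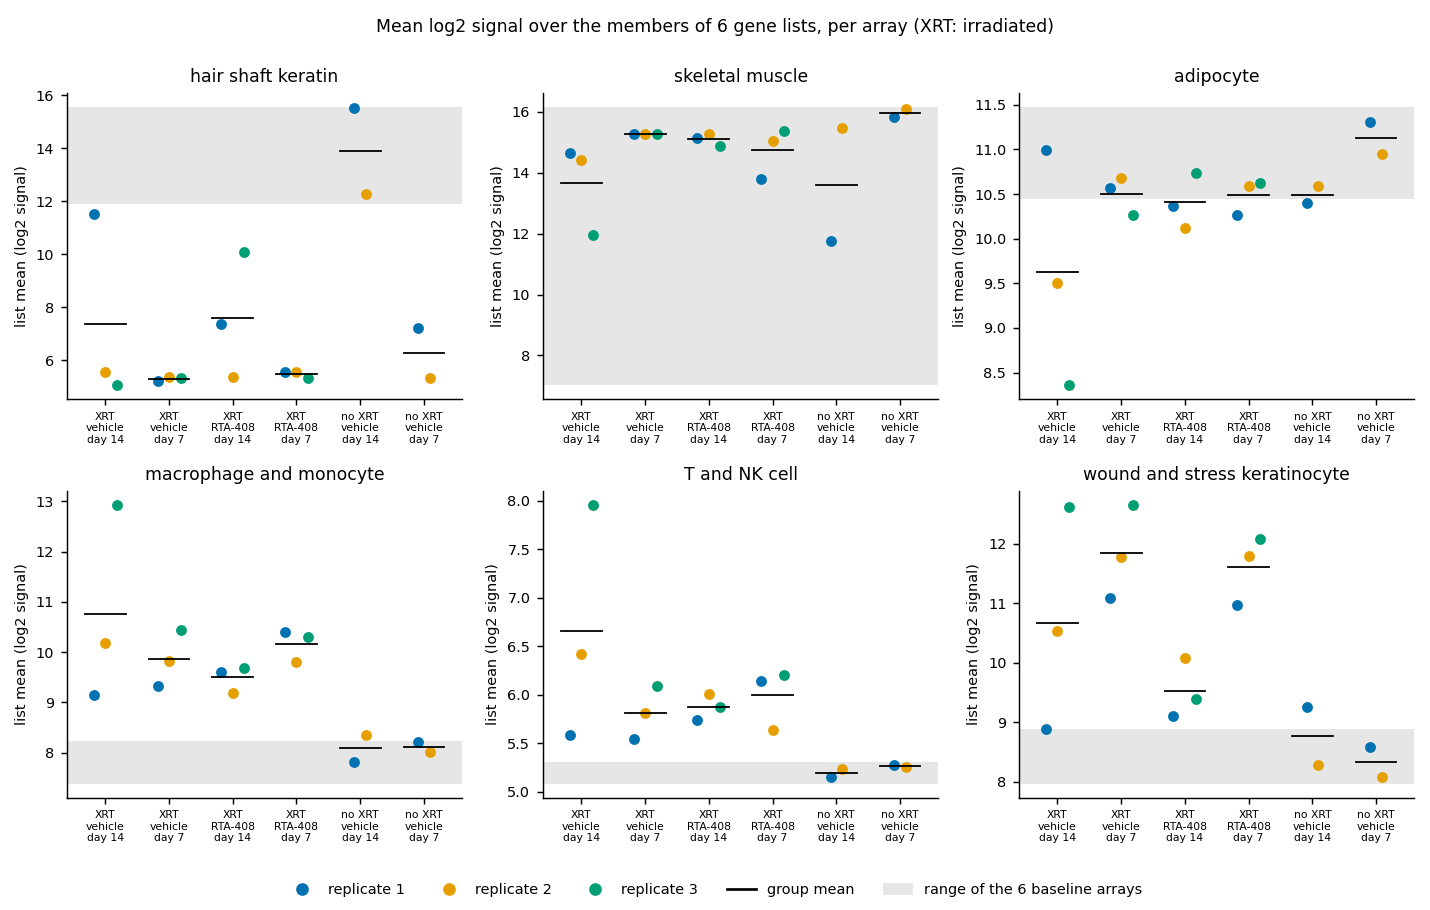
Mean log2 signal over the measured members of 6 lists in each array, with day 14 left of day 7 in each arm, a line at each group mean and the baseline range in grey. For macrophage genes replicate 3 of irradiated vehicle skin on day 14 stands at 12.92, and for hair shaft keratins replicate 1 stands at 11.52 while replicates 2 and 3 lie at 5.54 and 5.06.

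The division, DNA damage and matrix lists held no called member. The 29 measured cell division genes had a median of 0.07 and the 28 DNA replication genes one of -0.01. Among 29 p53 targets, which DNA damage switches on, the median was -0.11 and 6 had no overlap in the lower direction. Phlda3, a p53-induced inhibitor of AKT, had 10.41, 10.02 and 9.77 on day 14, against 10.65, 10.99 and 11.11 on day 7 (difference -0.85 ± 0.20, adjusted p = 0.0787). Cdkn1a, the cell cycle inhibitor p21, had 13.32, 12.77 and 14.04 on day 14, against 14.50, 13.59 and 14.31 on day 7 (adjusted p = 0.5).

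The 36 measured NRF2 targets had a median of -0.12 and no called member. Gpx2, an epithelial glutathione peroxidase, had 7.46, 7.10 and 7.61 on day 14, against 8.80, 9.67 and 9.88 on day 7, with no overlap and an adjusted p of 0.0711. Wound matrix genes had a median of 0.32 with 5 of 28 apart in the higher direction. By rat the median was 0.13, 0.08 and 0.79, and it was 0.12 without replicate 3. Bgn, the proteoglycan biglycan, had 15.02, 15.29 and 16.05 on day 14, against 14.24, 14.34 and 14.30 on day 7 (difference 1.16 ± 0.30, adjusted p = 0.109). Spp1, osteopontin, had 4.53, 6.67 and 11.66 on day 14, against 5.16, 4.50 and 4.82 on day 7, and again replicate 3 held the high value. The Spp1 mean of day 7 was no brighter than the negative controls.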

How the data were processed

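Transcripts were measured on 46 Clariom S rat arrays, from 100 ng of RNA each (mean RNA integrity number 7.15), per the labels' protocols. Each deposited value is a log2 signal that the authors had computed, and their normalization method was not given in the sources used here. Of 24834 features 1646 controls were left out, and array medians lay between 6.84 and 6.95. The number of arrays limits the precision. Symbols came from the array's annotation (15049 features with 1 symbol, 8139 without).

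With limma 3.58.1 (R 4.3.3), all 46 arrays were fitted by 1 mean for each of 16 groups and the rat as a block (22 residual degrees of freedom), with Benjamini-Hochberg adjustment over 23188 features and calls at an adjusted p under 0.05. SE is that of the model, from the residual spread of all 46 arrays, and does not show how far the 3 rats differed. For Klk10 it was 0.67 in both irradiated arms. The SD of the Klk10 day 14 arrays was 1.97 in vehicle and 0.48 in RTA-408 skin. The titles pair the days by rat, and deviations from the group means of the same rat correlated at 0.320, 0.032 and 0.455. Those of different rats correlated at -0.392 to 0.202, so replicate 2 was no closer to itself than to another rat. With the rat as a random block, the fitted correlation within rats was 0.00672. A group counted as no brighter than the negative controls if its mean did not exceed the average of its arrays' medians over 1153 negative control features, and "at least" differences are counted from there. For 1 unirradiated array of day 1 the title names day 1 and the description day 3, and the title was followed.

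Members, lists (45, with 962 of 1141 entries measured), motifs and tests were chosen with earlier results of these data known. Nameable were the 15 highest and 15 lowest called genes without overlap, up to 5 called members of a list or, with none, the 3 with the smallest p, a fixed panel, and genes that differed between arms. Rnase6, Kng2l1, Id1, Efna5, Hspb8, the kallikreins other than Klk6 and Klk10, Itga6 and Cd3e were named after their values were seen. The fit was tested on simulated data. It recovered 23 of 50 seeded changes of 1 log2 unit, 44 of 50 of 2, 49 of 50 of 3 and 50 of 50 of 4, with 13 false calls. The simulated noise was alike on every array, so it cannot show how the fit does where single arrays depart from their group. Alternatives were quantile normalization, leaving out the 5797 dimmest features, array weights, no block, a random block, the compared arrays alone, trended robust variances, spike-in sets as a block, and leaving out each rat, which for the unirradiated and RTA-408 arms was added after the data were seen.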

Additional observations from a re-analysis of the deposited data

Results flagged for a closer look

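The feature TC1400001501.rn.2, which has no gene symbol in the annotation used, differed in its interval between irradiated and unirradiated vehicle skin by -6.50 (adjusted p = 1.13e-05 for the difference of the differences), with day 14 below day 7 in all 3 irradiated rats and above it in both unirradiated rats. Its day 14 signals were 8.98, 9.54 and 8.77 in irradiated vehicle skin, against 13.72, 12.35 and 13.79 on day 7, and 10.93 and 9.17 in unirradiated skin on day 14, against 7.97 and 7.49 on day 7. In irradiated RTA-408 skin the difference was -3.56.

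Lix1 passed the same test with 1.93 (adjusted p = 0.0042), with 4.33, 4.09 and 4.09 on day 14 in irradiated vehicle skin, against 3.80, 3.79 and 3.98 on day 7, and 3.82 and 3.87 in unirradiated skin on day 14, against 5.47 and 5.44 on day 7. All of these are no brighter than the negative controls, and Lix1 was not among the features tested when the dimmest were left out.

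Among the 6 baseline arrays that gave the ranges above, 1 array lay far from the others in 4 of 31 quantities looked at (25 genes and 6 lists), where chance alone gives about 1 in 20. The array was replicate 5 for Ankh, replicate 4 for Camk1d and the hair shaft keratins, and replicate 2 for the muscle list. Ankh had a highest signal of 12.46 with the next at 12.03 (gap over range 0.726), and Camk1d a lowest of 7.07 with the next at 7.85 (0.671). The mean of the hair shaft keratins was 11.89 in one array, with the next at 14.22 (0.635). The mean of the skeletal muscle list was 7.03 in one array, with the next at 15.28 (0.903).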

How the results depend on the processing

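Over the alternatives the count of 39 features lay between 26 and 230 when a rat of the irradiated vehicle arm was left out (11 to 146 for those higher, main count 9, and 15 to 84 for those lower, main count 30). No replicate block gave 49 features, of which 15 were higher, the rat as a random replicate block 52, of which 16 were higher, and the compared arrays alone 0 in either direction. The lists with called members, 3 in the main fit, were 5 with array weights, 7 with no replicate block, 7 with a random block, 0 in the compared arrays alone, and 3 to 17 without 1 rat. In unirradiated skin 145 features passed, against 253 with array weights, 47 with no block, 52 with a random block, 32 with trended robust variances and 0 to 48 without 1 rat (limma, 1376 at an unadjusted p under 0.05 where the count was 0). In RTA-408 skin 230 passed, against 1004 with array weights and 5 to 42 without 1 rat. The difference of intervals against unirradiated skin had 2 features, 1 without the dimmest features, 4 to 51 without 1 vehicle rat and 1 to 5 without 1 unirradiated rat, and that against RTA-408 skin had 0, with 0 to 14 without 1 vehicle rat and 0 to 1 without 1 RTA-408 rat. The cause of these shifts was not tested. Quantile normalization (40), leaving out dim features (44), trended robust variances (38) and spike-in sets as a block (44) left the count within 1.5 times. Genes near the negative controls have no measured size below that level.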
